A study of Oryza sativa with 12 samples.

Results

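The genes described here are the auxin response factor (ARF) and Aux/IAA genes of rice (Oryza sativa), taken by name from ARF1 to ARF25 and from IAA1 to IAA31, 56 names in all. A total of 51 of these genes were found in the gene table, 23 ARF and 28 Aux/IAA. Of these, 43 had an array probe set paired with that gene alone (17 ARF and 26 Aux/IAA, with 54 probe sets), and 40 passed the filter on low values (17 ARF and 23 Aux/IAA). Over the whole array 17905 genes had such a probe set and 16065 passed. The names ARF11, ARF20, IAA22, IAA27 and IAA28, and the genes ARF5, ARF6, ARF8, ARF19, ARF21, ARF25, IAA11 and IAA29, were not analysed here. Members were numbered along the chromosomes, and 8 of them carried a second number from another naming system.

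Auxin is a plant growth hormone that acts largely through transcription. ARFs are transcription factors that bind auxin response elements in the promoters of their target genes, and Aux/IAA proteins bind ARFs and hold the targets silent with the help of TOPLESS-type co-repressors. When auxin joins an Aux/IAA protein to a receptor of the TIR1/AFB family, the Aux/IAA protein is ubiquitinated and degraded. Many Aux/IAA genes are themselves induced by auxin, so that the repressors are replaced. In flowers and panicles this system is known for its part in organ initiation, carpel patterning, anther development and grain growth.

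Panicles from the main tillers of flowering plants were profiled on 12 Affymetrix rice arrays, 3 in each of 4 groups. N22 heat and IR64 heat were panicles of the cultivars Nagina22 (N22), named as heat-tolerant in the labels, and IR64, named as susceptible, after 8 days and nights at 5 °C above the air outside in a phenotyping facility. N22 control and IR64 control were panicles of the same cultivars grown in the open field beside it, so heat and growing site changed together. All values below are log2 expression values as deposited, made by the authors with GCRMA, and a difference is heat minus control or N22 minus IR64 on that scale. The standard deviation (SD) is over 3 arrays and the standard error (SE) is that of the limma fit to all 12 arrays. A gene counts as called, and is said to have risen or fallen, at a Benjamini-Hochberg adjusted p under 0.05 over all probe sets tested. Whether the 3 replicates of a group are separate plants is not stated in the labels, so p-values cover only their spread, which may be technical.

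On each array 33.2% to 34.5% of the values exceeded a background level of 4.20, set at the brightest of 64 reporter probe sets that match no rice gene. The tissue markers differed between the groups. Of 14 floral organ markers 11 were above background on every array and DL, a carpel identity gene, was at background on all. The log2 of their summed level was 12.3 to 12.5 in N22 heat, 11.2 to 11.3 in N22 control, 14.0 to 14.1 in IR64 heat and 14.3 to 14.4 in IR64 control. For 3 endosperm markers that sum was 16.4 on all arrays of both N22 groups, 4.55 to 6.51 in IR64 heat and 5.99 to 8.49 in IR64 control. For 3 secondary wall markers it lay between 7.09 and 7.47 in N22 heat, N22 control and IR64 heat, against 12.9 to 13.2 in IR64 control. For 5 green tissue markers it was 15.7 to 15.9 in N22 heat, 13.7 to 13.8 in N22 control and 16.4 to 16.5 over both IR64 groups. Of 9 anther and tapetum markers 6 were at background on every array and GAMYB and MSP1 above it on all, with a sum of 9.59 to 9.61 in N22 heat, 10.4 to 10.6 in N22 control, 8.68 to 8.83 in IR64 heat and 8.75 to 8.87 in IR64 control. Of 5 meristem markers LAX1 and FZP were at background on every array and OSH1, OSH43 and OSH71 above it on all, with a sum of 9.47 to 9.75 in N22 heat, 9.56 to 9.79 in N22 control, 11.4 to 11.5 in IR64 heat and 11.9 to 12.2 in IR64 control. The 3′ minus 5′ signal of GAPDH, a measure of RNA integrity, was 8.81 ± 0.17 in N22 heat, 8.59 ± 0.14 in N22 control, 7.93 ± 0.16 in IR64 heat and 4.79 ± 0.18 in IR64 control (SD, n = 3). For ubiquitin this signal differed less, at 2.04 ± 0.05 in N22 heat and 2.21 ± 0.07 in N22 control. In IR64 it was 2.15 ± 0.01 with heat and 1.45 ± 0.03 in control. The part of these differences in the results below was not tested, and in whole panicles fewer cells of a type and less RNA per cell cannot be told apart.

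Nearly all ARF genes were expressed. On all 12 arrays 15 of the 17 ARF genes lay above background, and the exceptions were ARF10, above it on 2 arrays, and ARF13, above it on 1. Of the 26 Aux/IAA genes 15 were above background on all arrays and 6 on none: IAA4, IAA7, IAA9, IAA12, IAA16 and IAA26. IAA17 lay between 12.84 and 14.16 over the 12 arrays, from a probe set that can match several transcripts. No level is set against another gene's because probe sets differ in brightness.

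**Figure D1:**
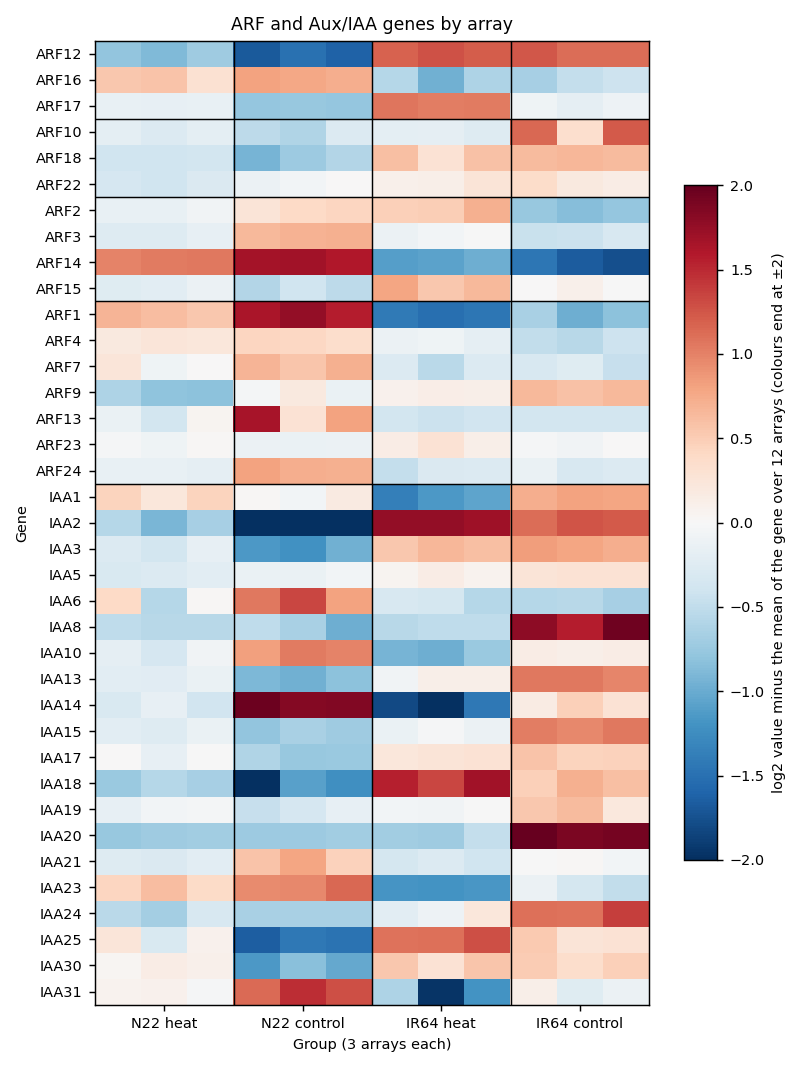
Log2 value of each ARF and Aux/IAA gene above background on at least 1 array, minus its mean over the 12 arrays, for 3 arrays each of N22 heat, N22 control, IR64 heat and IR64 control. Rows run from activator-type ARFs through miR160-target, tasiR-ARF-target and other ARFs to the Aux/IAA genes, and colours end at ±2. The 3 arrays of a group share their colour in most rows. N22 control and IR64 control each hold the highest mean of 14 of the 37 genes, and N22 control holds the lowest of 17. The shares of all genes with these orders were not counted.

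The first question is how these genes differed between heated and control panicles of each cultivar. In N22 panicles 14 members rose and 18 fell among the 40 tested, where 63.1% of all genes tested were called (29.6% higher and 33.5% lower). In IR64 panicles 10 rose and 18 fell, where the share of all genes called was also 63.1% (29.6% higher and 33.5% lower). The members' median difference was -0.08 in N22 and -0.16 in IR64, against -0.01 and -0.00 over all genes. The members' share called was thus 80.0% in N22 and 70.0% in IR64, and the ARF and Aux/IAA counts differed in direction. Centring the arrays on their medians changed the N22 count to 10 higher and 20 lower. Of the 40 members tested, 37 were above background on at least 1 array. Among these 13 rose and 17 fell in N22, and 10 rose and 17 fell in IR64.

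ARF genes mostly fell in heated N22 panicles, with 4 higher, 10 lower and a median of -0.30 (2 higher and 11 lower with median centring), and mostly rose where called in heated IR64 panicles, with 7 higher, 3 lower and a median of -0.02. The 7 include ARF23, whose probe sets disagree in direction, and without it 6 ARF genes were higher and 3 lower in IR64. The Aux/IAA genes gave 10 higher and 8 lower in N22, with a median of 0.17, a direction that turned to 8 higher, 9 lower and -0.02 with median centring. In IR64 they gave 3 higher and 15 lower with a median of -0.50 (3 higher, 12 lower and -0.39 with median centring). A test of the heat effect in N22 minus that in IR64 called 28 of the 40 members, 15 positive and 13 negative (14 and 19 with median centring), against 65.7% of all genes (35.5% positive and 30.2% negative). Among the ARF genes 3 of these differences were positive and 10 negative (2 and 14 with median centring), and among the Aux/IAA genes 12 were positive and 3 negative (12 and 5 with median centring). Whether the 2 families differ in this from each other or from other genes was not tested.

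**Figure D2:**
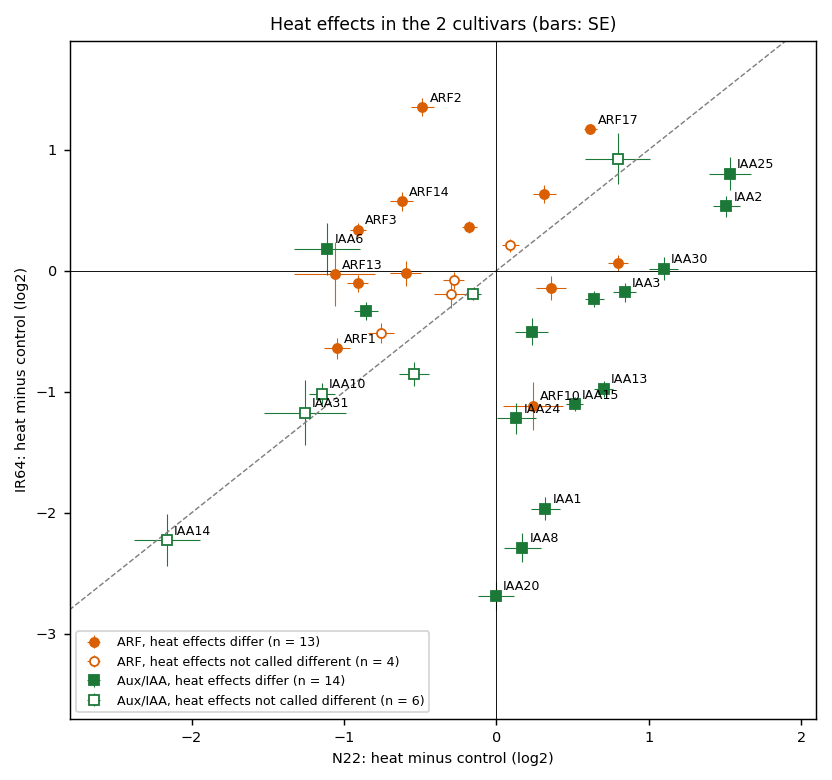
Heat minus control on the log2 scale in N22 (horizontal) and in IR64 (vertical) for the 37 members above background on at least 1 array, with SE bars. Circles are ARF and squares Aux/IAA genes, filled where the difference of the heat effects was called, and the dashed line marks equal effects. Filled ARF circles lie mostly above the line, with ARF2 at -0.49 in N22 and 1.35 in IR64, and filled Aux/IAA squares mostly below it, with IAA1 at 0.32 in N22 and -1.96 in IR64.

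Combining the calls in both cultivars, 5 of the 40 tested members rose in both (ARF15, ARF17, IAA2, IAA18 and IAA25), where 12.3% of all genes did. A further 8 fell in both (ARF1, ARF9, IAA5, IAA10, IAA14, IAA21, IAA23 and IAA31), where 12.1% of all genes did. Another 4, ARF2, ARF3, ARF4 and ARF14, fell in N22 and rose in IR64, against 9.09% of all genes. The reverse was found for 4 Aux/IAA genes, IAA1, IAA13, IAA15 and IAA17, which rose in N22 and fell in IR64, against 8.87% of all genes. For these 8 opposite genes the difference of the heat effects was called on the brightest probe set, but for ARF4 it was not called on the second (-0.27 ± 0.14, adjusted p = 0.131). Only ARF16 was called in neither cultivar among the 40 tested, at an adjusted p of 0.0502 in N22, and its call in N22 was gained under several alternatives.

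The ARFs that are targets of the trans-acting small RNAs called tasiR-ARF are ARF2, ARF3, ARF14 and ARF15, relatives of the Arabidopsis genes ETTIN and ARF4, which pattern the carpel and the upper and lower sides of organs. In heated N22 panicles 3 of them fell and ARF15 rose, and in heated IR64 panicles all 4 rose. ARF2 (LOC4325895) stood at 7.07, 7.06 and 7.14 on the N22 heat arrays, against 7.46, 7.61 and 7.64 on the N22 control arrays. In IR64 it stood at 7.68, 7.70 and 7.92 with heat, against 6.44, 6.36 and 6.43 in the controls. Heat and control did not overlap in either cultivar, and heat lay below control in N22 and above it in IR64. The differences were -0.49 ± 0.07 in N22 (SE, adjusted p = 0.000279) and 1.35 ± 0.07 in IR64 (adjusted p = 1.42e-07), and they differed by -1.84 ± 0.10 (adjusted p = 2.61e-07). A second ARF2 probe set gave -0.49 in N22 and 0.88 in IR64, both called.

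ARF14 (LOC4339313) behaved likewise on a lower level in IR64. Its values were 8.53, 8.57 and 8.58 in N22 heat and 9.19, 9.21 and 9.14 in N22 control. In IR64 they were 6.43, 6.45 and 6.56 with heat and 6.08, 5.87 and 5.77 in the controls. All arrays of a group lay apart from those of the other 3 groups. The gap between cultivars was narrower from both sides in the heat groups than in the controls. The heat effect was -0.62 ± 0.07 in N22 and 0.57 ± 0.07 in IR64, and their difference was -1.19 ± 0.11 (adjusted p = 5.64e-06).

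ARF3 (LOC4327014) had 8.12, 8.11 and 8.22 in N22 heat, against 9.02, 9.08 and 9.08 in N22 control. Its IR64 values were 8.26, 8.33 and 8.37 in heat and 7.93, 7.95 and 8.05 in control. The N22 control arrays alone lay at 9 or above. Heat minus control was -0.91 ± 0.05 in N22 and 0.34 ± 0.05 in IR64, a difference of -1.25 ± 0.08 (adjusted p = 4.45e-07).

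ARF15 (LOC9268260) rose in both cultivars, to a mean of 7.84 ± 0.07 in N22 heat against 7.52 ± 0.10 in N22 control, and to 8.69 ± 0.13 in IR64 heat against 8.05 ± 0.06 in IR64 control (SD, n = 3). Its difference of heat effects, -0.32 ± 0.11, had an adjusted p of 0.0300 and lost its call without any of several single arrays, among them N22 heat replicate 1 (adjusted p = 0.0682). Its rise in N22, 0.32, was not called with median centring (0.12, adjusted p = 0.182).

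**Figure D3:**
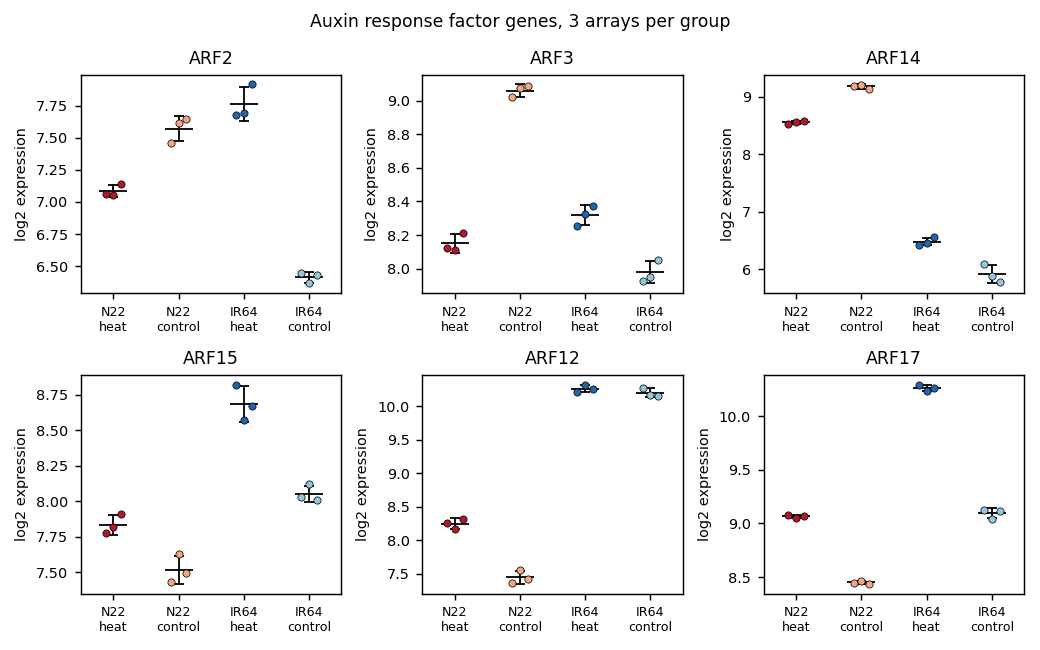
Log2 expression of ARF2, ARF3, ARF14, ARF15, ARF12 and ARF17 on each array, with N22 heat, N22 control, IR64 heat and IR64 control from left to right. Points are arrays, long bars group means and whiskers the SD of 3 arrays, and each panel has its own vertical scale that does not start at 0. ARF2, ARF3 and ARF14 are lower with heat in N22 and higher with heat in IR64, while ARF17 is higher with heat in both.

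Activator-type ARFs carry a glutamine-rich middle region and switch targets on, and 3 of them were measured. ARF17 (LOC4341841), a target of miR167, had 9.07, 9.05 and 9.07 in N22 heat, against 8.45, 8.46 and 8.44 in N22 control. In IR64 its values were 10.29, 10.24 and 10.26 with heat, against 9.13, 9.04 and 9.11 without. Heat lay above control in both cultivars with no overlap. The rise was 0.62 ± 0.04 in N22 (adjusted p = 7.24e-07) and 1.17 ± 0.04 in IR64 (adjusted p = 6.48e-09), and the effects differed by -0.55 ± 0.06 (adjusted p = 2e-05). ARF12 (LOC4337363), another miR167 target, known from root elongation, rose by 0.80 ± 0.07 in N22 and by 0.06 ± 0.07 in IR64, which was not called, and the effects differed (0.74 ± 0.09, adjusted p = 8.09e-05). ARF16 (LOC9270361) averaged 7.68 ± 0.14 in N22 heat and 7.97 ± 0.04 in N22 control.

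Of the ARFs cut by miR160, relatives of the repressor-type ARF10, ARF16 and ARF17 of Arabidopsis, 3 were measured. ARF18 (LOC4341882) rose by 0.36 ± 0.10 in N22 (adjusted p = 0.0105), a call lost with median centring (0.17), and had -0.15 ± 0.10 in IR64, which was not called. Its difference of heat effects, 0.51 (adjusted p = 0.0103), was not called with median centring either (0.20, adjusted p = 0.185). ARF22 (LOC4348918) fell by 0.28 ± 0.07 in N22 and had -0.08 ± 0.07 in IR64. ARF10 (LOC4336419) lay between 2.71 and 3.12 in N22 heat, N22 control and IR64 heat, against 4.46, 3.64 and 4.53 in IR64 control, and was above background on 2 of those arrays alone. Its call in IR64 therefore rests on values around background, and its difference of heat effects was not called with values raised to background (0.19, adjusted p = 0.120).

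Among the other ARFs, ARF1 (LOC4327785) fell in both cultivars. It had 9.56, 9.50 and 9.41 in N22 heat, against 10.51, 10.65 and 10.45 in N22 control, and 7.47, 7.37 and 7.44 in IR64 heat, against 8.24, 7.90 and 8.07 in IR64 control. No array of a group overlapped another group. The falls were -1.05 ± 0.09 in N22 (adjusted p = 3.54e-06) and -0.64 ± 0.09 in IR64 (adjusted p = 0.000123). ARF9 (LOC4335934) changed by -0.76 ± 0.08 in N22 and -0.52 ± 0.08 in IR64, both called, and the effects were not called different (-0.24 ± 0.12, adjusted p = 0.112), though they were without N22 control replicate 3 (adjusted p = 0.0426) and under both scalings.

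ARF24 (LOC4352211) and ARF23 (LOC4350610) are known to act as a pair on RMD, an actin-organising formin gene. Values of ARF24 were 10.15, 10.15 and 10.12 in N22 heat, against 11.10, 11.03 and 11.02 in N22 control, a fall of 0.91 ± 0.07 (adjusted p = 1.65e-06). Its IR64 groups overlapped, with means of 9.96 ± 0.11 in heat and 10.06 ± 0.10 in control. The effects differed by -0.80 ± 0.10 (adjusted p = 5.14e-05). For ARF23 the 2 probe sets disagreed: the brighter gave 0.21 ± 0.05 in IR64 and the other, which can match several transcripts, gave -0.68 ± 0.09, both called, so no direction is given for it. ARF7 (LOC4329672) fell in N22 by 0.60 ± 0.10 and had -0.02 ± 0.10 in IR64. ARF4 (LOC4326957), a restrainer of grain size, fell by 0.18 ± 0.05 in N22 and rose by 0.36 ± 0.05 in IR64, but its second probe set gave -0.00 in IR64 and was not called there. ARF13 (LOC9269399) was above background on N22 control replicate 1 alone, at 4.37, and its calls were lost with values raised to background.

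Turning to the repressors, the Aux/IAA genes with opposite heat effects were high in IR64 control. IAA1 (LOC4323871) had 7.87, 7.65 and 7.87 in N22 heat, against 7.45, 7.37 and 7.61 in N22 control. In IR64 it had 6.06, 6.27 and 6.37 with heat, against 8.15, 8.23 and 8.22 in the controls. IR64 heat was the lowest group and IR64 control the highest, with no overlap. The heat effect was 0.32 ± 0.10 in N22 (adjusted p = 0.0171) and -1.96 ± 0.10 in IR64 (adjusted p = 5.92e-08), and they differed by 2.28 ± 0.14 (adjusted p = 3.37e-07). The N22 call was lost with median centring (0.13, adjusted p = 0.271), without N22 heat replicate 1 (adjusted p = 0.0625) or 3 (adjusted p = 0.0601), and without N22 control replicate 2 (adjusted p = 0.0649).

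IAA13 (LOC4334069), known from lateral root initiation, had 10.05, 10.02 and 10.13 in N22 heat, against 9.35, 9.30 and 9.44 in N22 control. Its values were 10.19, 10.37 and 10.37 in IR64 heat, against 11.32, 11.31 and 11.23 in IR64 control. The control arrays of the cultivars lay far apart and the heat arrays close together. Heat minus control was 0.70 ± 0.06 in N22 (adjusted p = 6.73e-06) and -0.98 ± 0.06 in IR64 (adjusted p = 5.55e-07), a difference of 1.68 ± 0.09 (adjusted p = 1.83e-07).

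IAA15 (LOC4337971) had 9.23, 9.17 and 9.29 in N22 heat, against 8.64, 8.79 and 8.72 in N22 control. In IR64 heat its values were 9.29, 9.40 and 9.31, against 10.45, 10.39 and 10.49 in IR64 control. It likewise had its lowest arrays in N22 control and its highest in IR64 control. It rose by 0.51 ± 0.06 in N22 and fell by 1.10 ± 0.06 in IR64, a difference of 1.62 ± 0.08 (adjusted p = 1.16e-07). IAA17 (LOC4338160, probe set shared between transcripts) rose by 0.64 ± 0.07 in N22, and its fall of 0.23 ± 0.07 in IR64 was not called with median centring (-0.12) or quantile normalization (-0.11).

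The genes IAA8 and IAA20 were above background in a single group, IR64 control. IAA8 (LOC4330571) lay between 2.46 and 2.93 on the 9 arrays of N22 heat, N22 control and IR64 heat, against 5.22, 5.00 and 5.39 in IR64 control. IAA20 (LOC4340245), a drought- and salt-responsive member, lay between 2.52 and 2.80 on those 9 arrays, against 5.65, 5.16 and 5.20 in IR64 control. Heated IR64 panicles were at least 2.0-fold lower for IAA8 (adjusted p = 1.01e-07) and at least 2.19-fold lower for IAA20 (adjusted p = 2.85e-08), bounds from the bright group's mean to the background level. No fold is given in N22, where both groups lay at background. IR64 control was also the group with the lowest 3′ minus 5′ signal of GAPDH and of ubiquitin, and the highest secondary wall marker sum.

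IAA24 (LOC4342573) and IAA19 (LOC4339588) fell in IR64 and were not called in N22. IAA24 had 0.13 ± 0.13 in N22 and -1.22 ± 0.13 in IR64, a difference of 1.35 ± 0.18 (adjusted p = 0.000106). IAA19 had 0.23 ± 0.11 in N22 and -0.50 ± 0.11 in IR64, a difference of 0.74 ± 0.16 (adjusted p = 0.00231). The call of IAA19 in N22 was gained without N22 control replicate 3 (0.31, adjusted p = 0.0490) or IR64 control replicate 3 (adjusted p = 0.0337).

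**Figure D4:**
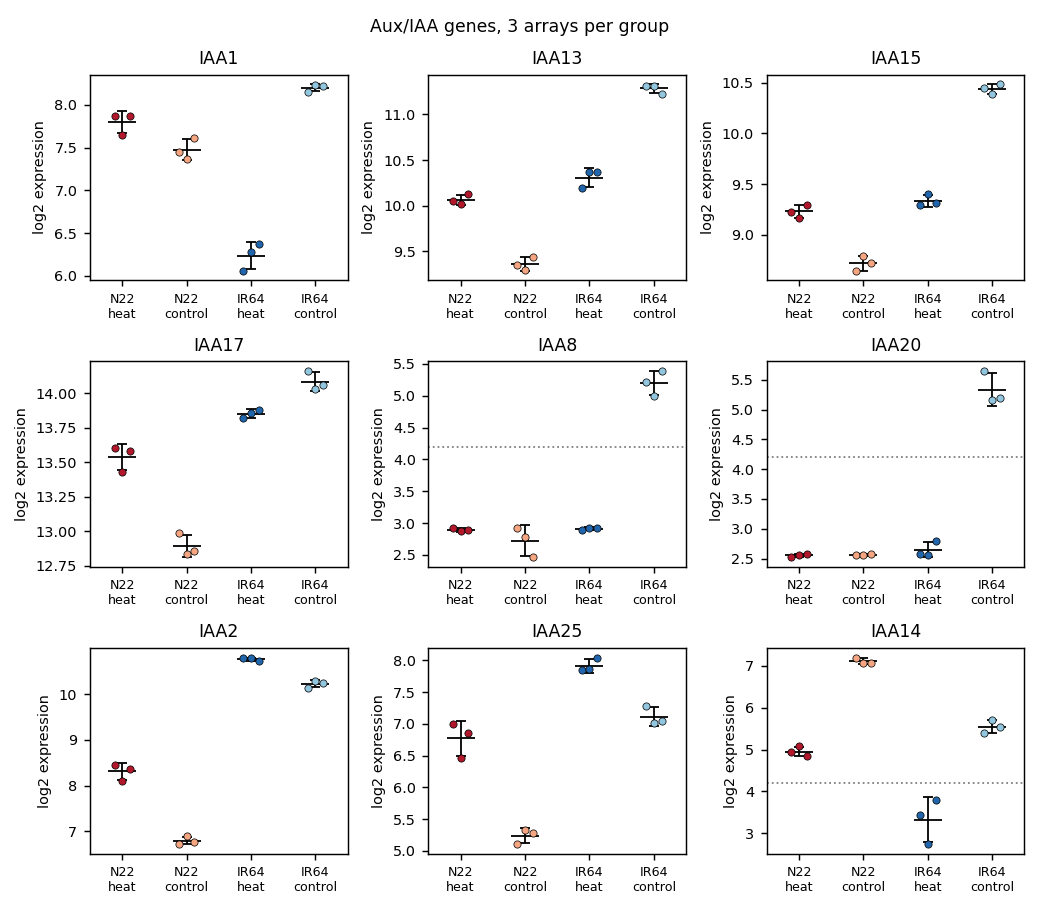
Log2 expression of 9 Aux/IAA genes on each array, with N22 heat, N22 control, IR64 heat and IR64 control from left to right. Points are arrays, long bars group means and whiskers the SD of 3 arrays, the dotted line is the background level of 4.20 where it falls in the panel, and vertical scales differ and do not start at 0. IAA8 and IAA20 rise above the line in IR64 control alone, IAA14 is lower with heat in both cultivars, and IAA2 and IAA25 are higher with heat in both.

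Rises in both cultivars were found for IAA2, IAA25 and IAA18. IAA2 (LOC4326775) had 8.46, 8.11 and 8.36 in N22 heat, against 6.73, 6.89 and 6.78 in N22 control, and 10.78, 10.78 and 10.71 in IR64 heat, against 10.14, 10.29 and 10.25 in IR64 control. Heat lay above control with no overlap in each cultivar. The rise was 1.51 ± 0.09 in N22 (adjusted p = 2.52e-07) and 0.53 ± 0.09 in IR64 (adjusted p = 0.000443), larger in N22 by 0.98 ± 0.12 (adjusted p = 7.21e-05).

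IAA25 (LOC4344471) had 7.0, 6.46 and 6.85 in N22 heat, against 5.10, 5.33 and 5.28 in N22 control. In IR64 its values were 7.85, 7.86 and 8.04 with heat, against 7.28, 7.01 and 7.04 without. It rose by 1.53 ± 0.14 in N22 (adjusted p = 5.47e-06), which was 0.73 ± 0.19 more than the rise of 0.80 ± 0.14 in IR64 (adjusted p = 0.00837). IAA18 (LOC4339365) rose by 0.80 ± 0.21 in N22 and by 0.93 ± 0.21 in IR64. Its N22 control arrays were spread, at 5.17, 6.13 and 5.99, and the N22 rise was not called in a fit of the N22 arrays alone (adjusted p = 0.0699). The heat effects of IAA18 were called different (-0.43, adjusted p = 0.0369) only without N22 control replicate 1, among the alternatives tried.

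IAA3 and IAA30 rose in heated N22 panicles, and neither was called in IR64. IAA30 (LOC4352721) had 7.96, 8.06 and 8.03 in N22 heat, against 6.77, 7.08 and 6.91 in N22 control. Its IR64 groups overlapped, at 8.47, 8.22 and 8.47 with heat and 8.44, 8.27 and 8.39 without. The N22 rise was 1.10 ± 0.09 (adjusted p = 4.19e-06), the IR64 difference was 0.02 ± 0.09, and the effects differed by 1.08 ± 0.13 (adjusted p = 5.97e-05). IAA3 (LOC4325890) averaged 11.83 ± 0.11 in N22 heat and 10.99 ± 0.13 in N22 control, a rise of 0.84 ± 0.08 (adjusted p = 6.86e-06). In IR64 its difference was -0.18 ± 0.08 (adjusted p = 0.0785), which was called without N22 control replicate 3 (adjusted p = 0.0433), in a fit of the IR64 arrays alone (adjusted p = 0.0250) and with trend and robust settings (adjusted p = 0.0472).

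Falls in both cultivars were led by IAA14 (LOC4334431). Its values were 4.94, 5.07 and 4.85 in N22 heat, against 7.20, 7.07 and 7.08 in N22 control, a fall of 2.16 ± 0.22 (adjusted p = 1.34e-05). In IR64 heat it lay at background, at 3.44, 2.73 and 3.80, against 5.40, 5.72 and 5.53 in IR64 control, at least 2.54-fold lower (adjusted p = 1.02e-05). The groups did not overlap in either cultivar. The fitted effects were not called different (0.06 ± 0.31, adjusted p = 0.881). Raising values to background caps the fall in IR64, so the difference under that setting is not read.

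IAA10 (LOC4331149), an Aux/IAA bound by a capsid protein of rice dwarf virus, had 8.97, 8.82 and 9.09 in N22 heat, against 9.98, 10.19 and 10.14 in N22 control. In IR64 it had 8.23, 8.18 and 8.42 with heat, against 9.31, 9.27 and 9.30 without. The falls were of like size, -1.14 ± 0.09 in N22 (adjusted p = 1.9e-06) and -1.02 ± 0.09 in IR64 (adjusted p = 4.13e-06), and their difference was -0.13 ± 0.12 (adjusted p = 0.415). With median centring that difference was called (-0.43, adjusted p = 0.00515).

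IAA21 (LOC4340939) changed by -0.86 ± 0.08 in N22 and -0.33 ± 0.08 in IR64, where the call was lost with quantile normalization (-0.18, adjusted p = 0.0977). IAA23 (LOC4341432, shared probe set), known from the quiescent centre of the root, changed by -0.54 ± 0.10 in N22 and -0.86 ± 0.10 in IR64, and its second probe set was not called in IR64 (-0.41, adjusted p = 0.0695). IAA31 (LOC4352722) fell by 1.26 ± 0.27 in N22, with 4.51, 4.53 and 4.42 in N22 heat, against 5.58, 5.92 and 5.74 in N22 control. In IR64 heat it lay at background, at least 1.11-fold lower than IR64 control (adjusted p = 0.00411), a call lost with values raised to background, which caps that fall, and in a fit of the IR64 arrays alone (adjusted p = 0.0532). The fitted effects were not called different (-0.09 ± 0.38, adjusted p = 0.870). IAA5 (LOC4325515) changed by -0.15 ± 0.05 in N22 and -0.19 ± 0.05 in IR64, and the IR64 value turned to 0.01 with quantile normalization. Its N22 call was lost without N22 heat replicate 1 (adjusted p = 0.0772), N22 heat replicate 2 (adjusted p = 0.0581) or N22 control replicate 3 (adjusted p = 0.0726).

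IAA6 (LOC4326541), known from tillering and drought responses, had 4.14, 3.17 and 3.77 in N22 heat, all at background, against 4.79, 5.07 and 4.54 in N22 control, at least 1.52-fold lower with heat (adjusted p = 0.00141). The IR64 groups were both at background, so no fold is given. The calls of IAA4, IAA7 and IAA12 concern differences below background and are not read further.

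The second question is how the cultivars differed under each condition. In heated panicles 12 members were higher and 18 lower in N22 than in IR64, against 74.4% of all genes called (34.0% higher and 40.5% lower), with a median of -0.07 (all genes -0.05). In control panicles 16 were higher and 21 lower, against 81.4% of all genes (39.3% higher and 42.1% lower), with a median of -0.34 (all genes -0.03). Called differences of at least 2-fold numbered 7 higher and 5 lower in heat, where 35.1% of all genes reached that size (16.7% higher and 18.4% lower). In control they numbered 10 higher and 14 lower, where 48.1% of all genes did (21.0% higher and 27.1% lower). These comparisons share arrays with the heat effects above. ARF genes gave 6 higher and 9 lower in heat and 9 higher and 7 lower in control. Without ARF23, whose probe sets disagree in direction, 6 were higher and 8 lower in heat. Among the 6 is ARF24 (0.18, adjusted p = 0.0394), whose call was lost with median centring and with quantile normalization. Aux/IAA genes gave 6 higher and 9 lower in heat and 7 higher and 14 lower in control.

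**Figure D5:**
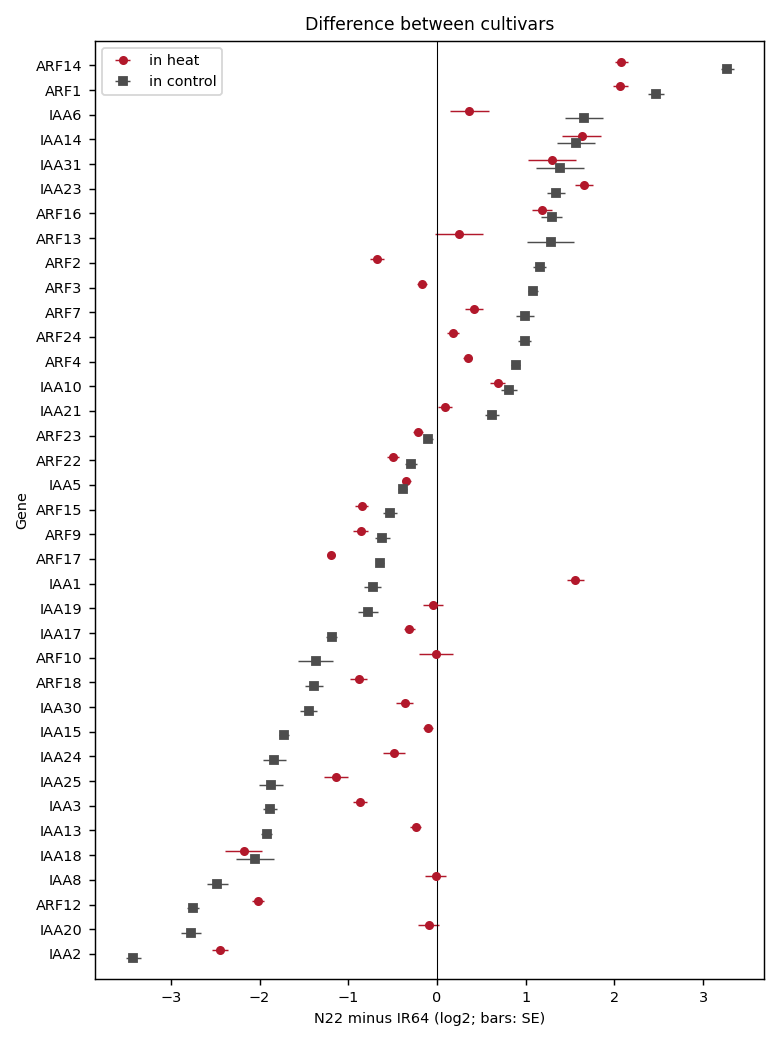
N22 minus IR64 on the log2 scale, with SE bars, for the 37 members above background on at least 1 array, sorted by the difference in control. Red circles are heated panicles and grey squares control panicles, with one row per gene. IAA13, IAA15, IAA8 and IAA20 lie near 0 in heat and between -1.72 and -2.77 in control, while ARF14, ARF1, IAA2 and ARF12 keep their side in both.

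ARF14 and ARF1 were higher in N22 in both conditions. ARF14 differed by 2.08 ± 0.07 in heat (4.23-fold, adjusted p = 2.68e-09) and by 3.27 ± 0.07 in control (9.67-fold, adjusted p = 5.19e-11). ARF1 differed by 2.07 ± 0.09 in heat (adjusted p = 9.56e-09) and by 2.47 ± 0.09 in control (adjusted p = 1.26e-09). IAA14 was at least 1.68-fold higher in N22 heat than in IR64 heat (adjusted p = 6.5e-05) and 1.57 ± 0.22 higher on the log2 scale in N22 control (adjusted p = 6.91e-05). IAA23 was 1.65 ± 0.10 higher in heat (adjusted p = 1.29e-07) and 1.34 ± 0.10 higher in control. A cultivar difference on an array can hold a sequence difference at the probes as well as one in RNA, and the values do not tell these apart. The endosperm and floral organ marker sums given above also differed between N22 and IR64 in both conditions, and their part was not tested.

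IAA2, ARF12 and IAA18 were lower in N22 in both conditions. IAA2 differed by -2.45 ± 0.09 in heat (5.45-fold, adjusted p = 2.51e-09) and by -3.42 ± 0.09 in control (10.7-fold, adjusted p = 1.12e-10). ARF12 had 8.26, 8.16 and 8.32 in N22 heat, against 10.22, 10.32 and 10.25 in IR64 heat, a difference of -2.02 ± 0.07 (adjusted p = 1.46e-09). Its control values were 7.36, 7.55 and 7.43 in N22, against 10.27, 10.16 and 10.16 in IR64, a difference of -2.75 ± 0.07 (adjusted p = 7.87e-11). The cultivars did not overlap in either condition. IAA18 differed by -2.18 ± 0.21 in heat (adjusted p = 5.45e-06) and by -2.05 ± 0.21 in control. ARF17 differed by -1.20 ± 0.04 in heat (adjusted p = 1.99e-09) and by -0.64 ± 0.04 in control.

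Several genes differed by less in heat than in control. IAA13 differed by -0.24 ± 0.06 in heat and by -1.92 ± 0.06 in control, both called. IAA15 differed by -0.11 ± 0.06 in heat (adjusted p = 0.144) and by -1.72 ± 0.06 in control (adjusted p = 8.48e-10), and the heat difference was called with median centring (-0.20, adjusted p = 0.0225) and quantile normalization (-0.18, adjusted p = 0.0216). IAA8 and IAA20 were at background in heated panicles of both cultivars, and in control they were at least 2.0-fold and at least 2.19-fold lower in N22 than in IR64. IAA6 was at background in both heat groups, and in control it was at least 1.52-fold higher in N22 (adjusted p = 4.27e-05). Its difference in heat, below background, was called without N22 heat replicate 2 (adjusted p = 0.00769).

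The order of the cultivars turned for IAA1, ARF2 and ARF3, and how many of all genes did so was not counted. IAA1 differed by 1.56 ± 0.10 in heat (adjusted p = 1.55e-07) and by -0.72 ± 0.10 in control (adjusted p = 4.84e-05). ARF2 differed by -0.68 ± 0.07 in heat (adjusted p = 1.45e-05) and by 1.16 ± 0.07 in control (adjusted p = 1.29e-07). ARF3 differed by -0.17 ± 0.05 in heat (adjusted p = 0.0204) and by 1.08 ± 0.05 in control. The heat difference of ARF3 was not called without N22 heat replicate 1 (adjusted p = 0.0606), N22 heat replicate 2 (adjusted p = 0.0635) or IR64 heat replicate 3 (adjusted p = 0.0685).

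Other genes of the auxin pathway were taken from lists by gene symbol, chosen with earlier results of these data known. FIB (LOC4325198), an aminotransferase of auxin synthesis, fell in both cultivars, with differences of -1.07 ± 0.16 in N22 and -1.94 ± 0.16 in IR64, and YUCCA1 was at background throughout. The co-repressor gene TPR2 (LOC4327709, shared probe set) had 10.37, 10.49 and 10.39 in N22 heat, against 11.03, 11.14 and 11.05 in N22 control, and 10.46, 10.59 and 10.57 in IR64 heat, against 10.07, 10.05 and 10.02 in IR64 control. It fell by 0.66 ± 0.06 in N22 and rose by 0.49 ± 0.06 in IR64. These were the directions of 9.09% of all genes, ARF2, ARF3, ARF4 and ARF14 among them. A link of TPR2 to those genes was not tested. TPR3 fell by 0.64 ± 0.10 in N22 and had 0.13 ± 0.10 in IR64. TIR1/AFB receptor genes were not analysed here.

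Among 4 tested genes of auxin transport, 1 rose and 0 fell in N22, and 1 rose and 2 fell in IR64, against 63.1% of all genes called in each cultivar. PIN3A (LOC4326565, shared probe set), an auxin efflux carrier, rose in both, at least 2.35-fold in N22 (adjusted p = 2.02e-07) and by 2.02 ± 0.15 in IR64. PIN5A (LOC4324368) was at least 3.62-fold lower in IR64 heat than in IR64 control and at background in N22.

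Early auxin response genes, GH3 and SAUR, gave 3 higher and 3 lower of 8 tested in N22 and 2 higher and 2 lower in IR64, against 63.1% of all genes called in each cultivar. GH3 enzymes join auxin or other acids to amino acids. GH3.2 (LOC4326893) had 5.72, 5.30 and 5.89 in N22 heat, against 4.86, 5.00 and 5.41 in N22 control, and 6.05, 5.68 and 5.67 in IR64 heat, against 9.17, 9.18 and 9.32 in IR64 control. Its mean was highest in IR64 control, as for IAA1, IAA8, IAA20 and other members. It rose by 0.54 ± 0.18 in N22 (adjusted p = 0.0277) and fell by 3.43 ± 0.18 in IR64 (adjusted p = 1.03e-07), a difference of 3.97 ± 0.25 (adjusted p = 5.86e-07). GH3-8 (LOC4343785) was 4.02 ± 0.27 higher in N22 than in IR64 in heat and 4.82 ± 0.27 higher in control. Its IR64 values lay around background, with means of 4.07 in heat and 4.26 in control. Only 1 array of each IR64 group exceeded background, so the size of these differences is uncertain.

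Of 7 tested genes that release auxin from its conjugates or oxidise it, 3 rose and 3 fell in N22, and 0 rose and 4 fell in IR64, where 29.6% of all genes rose and 33.5% fell in each cultivar. ILL1 (LOC4324686), of a family of conjugate hydrolases, had 6.80, 7.21 and 7.12 in N22 heat, against 5.54, 5.24 and 5.32 in N22 control. In IR64 it had 5.54, 5.67 and 5.48 with heat, against 6.0, 6.28 and 6.18 without. It rose by 1.68 ± 0.12 in N22 and fell by 0.59 ± 0.12 in IR64, as ILL2 (shared probe set) did, at least 1.84-fold higher in N22 heat than in N22 control and at least 2.3-fold lower in IR64 heat than in IR64 control. DAO (LOC4336150), an auxin oxidase gene needed for anther and seed development, rose by 0.88 ± 0.14 in N22 and had -0.30 ± 0.14 in IR64, a difference of 1.18 ± 0.20 (adjusted p = 0.00064). ILL8 (LOC4342839) was 5.70 ± 0.12 higher in N22 than in IR64 in heat and 6.70 ± 0.12 higher in control.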

How the data were processed

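The authors deposited log2 values for 57381 probe sets and 12 arrays in 1 table, made with GCRMA per the submitters' processing notes (version not given in the sources used here). GCRMA corrects background by probe sequence and scales arrays to one distribution, so differences are relative to the bulk of genes and low values are compressed. All 12 columns were used, with groups from the labels. No detection calls or raw scanner files were used.

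The 123 control probe sets were left out. A probe set was tested where its value exceeded the table median of 2.35 on at least 3 arrays, which left 29803. Means of the 4 groups were fitted with limma 3.58.1 in R 4.3.3 (8 residual and 1.79 prior degrees of freedom), with 5 contrasts, two-sided, adjusted by the Benjamini-Hochberg method over all tested probe sets per contrast. The fit was tested on simulated data. Each gene is represented by its brightest probe set among those paired with that gene alone (22436 probe sets, against 95 paired with several genes and 34850 with none), by the array annotation, with names from the gene table of assembly ASM3414082v1. Gene order was taken from that gene table. No coordinates are given, and no sequences, since no genome sequence was used. Where no array of a group exceeded the background level of 4.20 (the next highest reporter was at 3.12), the fold is a lower bound.

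The members and lists, the background level and the naming rule were chosen with earlier results of these data known. Named with full values were, per contrast, the 4 largest called rises and falls without overlap of the groups, with others by their role. Arrays of a group correlated at 0.994 to 0.997, none were identical, and their number limits the precision. Alternatives were 2 filters, 2 scalings, values raised to background, other eBayes settings, fits of the compared groups alone, 2 other choices of probe set, the replicate number as a block, and each array left out in turn.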

Additional observations from a re-analysis of the deposited data

Results flagged for a closer look

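The heat effects of 28 members differed between N22 and IR64 by the limma test of the difference at an adjusted p under 0.05, where 65.7% of all genes did. All values are the heat effect in N22 minus that in IR64 on the log2 scale.

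Of the ARF genes, 10 differed negatively: ARF2 by -1.84, ARF3 by -1.25, ARF14 by -1.19, ARF13 by -1.04, ARF24 by -0.80, ARF7 by -0.57, ARF17 by -0.55, ARF4 by -0.54, ARF1 by -0.41 and ARF15 by -0.32. The values of ARF13 lie at background on 11 of the 12 arrays. Positive differences were found for ARF10 (1.36, around background), ARF12 (0.74) and ARF18 (0.51). The difference of ARF4 was not called on its second probe set (-0.27, adjusted p = 0.131), and that of ARF18 was not called with median centring (0.20, adjusted p = 0.185).

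Of the Aux/IAA genes, 12 differed positively. IAA20 (2.68) and IAA8 (2.46) were above background in IR64 control alone. IAA1 gave 2.28, IAA13 gave 1.68, IAA15 gave 1.62 and IAA24 gave 1.35. For IAA30 the value was 1.08, for IAA3 it was 1.02, for IAA2 it was 0.98 and for IAA17 it was 0.88. IAA19 (0.74) and IAA25 (0.73) had the smallest positive values among the called Aux/IAA genes. The negative ones were IAA6 (-1.29, above background in N22 control alone), IAA21 (-0.52) and IAA7 (-0.27), the last at background on all arrays.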

How the results depend on the processing

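The 40 named differences (8 per contrast) kept their direction and their call in all settings tried. The number of members called lay between 29 and 33 for heat in N22, 25 and 29 for heat in IR64, 34 and 38 for N22 against IR64 in control, 27 and 31 in heat, and 25 and 33 for the difference of the heat effects, over all alternatives, with none more than 1.5 times from the main count. Leaving out 1 array at a time gave 29 to 33, 27 to 29, 37 to 38, 27 to 31 and 26 to 29 in that order. The members' median difference lay between -0.53 (stricter filter) and -0.10 (no filter) for N22 against IR64 in control, and between -0.33 (median centring) and 0.07 (without IR64 heat replicate 1) for the difference of the heat effects. Centring the arrays on their medians moved the median of all genes by -0.19 for heat in N22, 0.11 for heat in IR64, 0.20 and -0.10 for the cultivars in control and in heat, and -0.30 for the difference of the heat effects, so small differences are to be read against these shifts. Quantile normalization moved the last by -0.12. With median centring the share of called genes that were higher was 33.5% for heat in N22 (46.9% as deposited) and 37.4% positive for the difference (54.1%). Whether replicate numbers pair the samples was not settled. Deviations of same-numbered arrays correlated between -0.05 and 0.10 and those of other arrays between -0.11 and 0.06, too few and too small to decide it. The replicate number as a block gave 32, 28, 37, 29 and 27 calls in the order above. It lost 2, ARF24 between cultivars in heat (adjusted p = 0.0703) and ARF15 in the difference (adjusted p = 0.0568). Calls of ARF13, IAA4 and IAA12 near or below background were lost under several settings. ARF23 turned direction with the mean of its probe sets, to -0.23 for heat in IR64 and to 0.26 between cultivars in heat. The cause of these changes was not tested. Signal over background limits ARF10, ARF13, IAA4, IAA6, IAA7, IAA8, IAA12, IAA14, IAA20 and IAA31, where at least 1 group lay at background.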

Other observations

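IAA30 and IAA31 are neighbouring genes in the assembly ASM3414082v1, and their values went apart in heated N22 panicles. IAA30 rose by 1.10 ± 0.09 in N22 (SE, adjusted p = 4.19e-06, limma) and IAA31 fell by 1.26 ± 0.27 (adjusted p = 0.00271). In IR64 the difference was 0.02 ± 0.09 for IAA30 (adjusted p = 0.956), and IAA31 lay at background in heated panicles. Between cultivars in control, IAA30 was lower in N22 by 1.45 ± 0.09 and IAA31 was higher by 1.39 ± 0.27. In IR64 control IAA31 lay close to background, with a mean of 4.36 and 2 arrays above it.

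HOX1 (LOC4349388), a homeobox gene listed as a downstream regulator, rose by 1.11 ± 0.19 in N22 and had -0.25 ± 0.19 in IR64, a difference of 1.36 ± 0.26 (adjusted p = 0.0013).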
